A study of Mus musculus with 12 samples.

Results

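The proteasome is built from products of the Psma, Psmb, Psmc, Psmd, Psme, Psmf and Psmg genes, and their messenger RNA was examined here in hearts of mice given carbon tetrachloride (CCL4 in the labels, CCl4 here) and of Control mice. A gene was taken when its symbol began with Psm, a letter from a to g and a number, was not marked as a pseudogene, and had 0.5 RPKM or more in 6 or more of the 12 libraries. RPKM is the read number scaled by gene length and by the size of the library. Of 31722 gene symbols 50 matched by name and 48 also passed the level, out of 14087 genes that passed it in all. One of the 48, Psmc3ip, encodes a meiotic recombination cofactor and no part of the proteasome, so the counts below refer to the other 47 genes. Psma8, a testis form of an alpha subunit, had 0.149 to 0.27 RPKM in CCl4 hearts and 0.105 to 0.347 RPKM in Control hearts and did not pass. Psmb11, the thymus form of the beta-5 subunit, was listed at 0 in all 6 CCl4 hearts and at 0 to 0.015 RPKM in Control hearts and did not pass either. The label fits the genes: apart from Psmc3ip, each of them is named for a subunit, regulator or assembly factor of the proteasome, and Psme2b is a retrocopy of Psme2.

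The study took heart tissue from 6 CCl4 mice and 6 Control mice, all C57BL/6J, to ask how liver cirrhosis made with CCl4 affects the heart. No genotype other than the strain was given, and the dose, route, duration, age and sex were not stated in the labels. Both sexes appear in the RNA: Xist had 19.4 to 31.1 RPKM in 4 hearts of each group, while replicates 2 and 5 of each group had at most 0.126 RPKM of it and 6.18 to 7.79 RPKM of the Y-linked Ddx3y. The sample titles name the tissue only as heart and do not say which part was taken. Tnnt2, a cardiomyocyte troponin, had 4920 to 6960 RPKM in CCl4 hearts and 5090 to 6140 RPKM in Control hearts. Sequencing depth, as the number of steps in which the low RPKM values move, was 39641799 to 63377096 in CCl4 libraries and 26351778 to 57739399 in Control libraries. Genes of the mitochondrial genome and their copies on chromosome 1 together took 33.36% to 45.67% of the signal in CCl4 hearts. In Control hearts they took 31.07% to 39.75%. The summed level of 6 atrial markers ran from 838 to 11753 RPKM in CCl4 hearts and from 608 to 15085 RPKM in Control hearts. CCl4 replicate 4 and Control replicate 1 were the richest. Of the 5 atrial markers tested 4 were below 0 in the fold change and 1 above, with a median log2 fold change of -1.38 and 0 at an unadjusted p under 0.05 (limma). Myl7, an atrial marker, had 0.811 to 307 RPKM in CCl4 hearts and 9.47 to 419 RPKM in Control hearts. For Myl7, 5 of the 6 CCl4 hearts were below the Control median. The summed level went the other way in the mean, at 5497 RPKM in CCl4 hearts and 4580 RPKM in Control hearts. CCl4 replicate 6, with the lowest Myl7, had a sum of 6680 RPKM, so the sum does not follow each marker. Of the fibroblast markers 6 of 6 were above 0 in the fold change (2 at an unadjusted p under 0.05), and of the red cell markers 5 of 5 (5 at an unadjusted p under 0.05). In RNA of heart tissue, fewer cells of a type and less RNA per cell cannot be told apart.

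The proteasome degrades proteins that have been tagged with chains of ubiquitin. Its barrel-shaped core, the 20S particle, is made of rings of alpha and beta subunits, and 3 of the beta subunits hold the cutting sites. The 19S cap recognises the tagged protein, unfolds it with a ring of ATPases and feeds it into the barrel. Interferon and immune cells bring in 3 replacement beta subunits, which make the immunoproteasome and shift the peptides that reach MHC class I molecules. In the heart the proteasome is known for the turnover of contractile proteins.

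Most of the 47 proteasome genes had a slightly negative fold change in CCl4 hearts, and 0 of them passed the test. Their log2 fold changes, on the log2(RPKM + 1) scale with CCl4 minus Control, ran from -0.23 (Psmb4) to 0.13 (Psmb10), with a median of -0.1 against -0.05 over all 14087 genes tested. Under the other scalings the median of the 47 ran from -0.18 (TPM, all genes -0.1) to -0.01 (without mitochondrial genes and their chromosome 1 copies, all genes 0.02). Of the 47 genes 40 were below 0 (85.1%) and 7 above, whereas 65.7% of all tested genes were below 0 and 34.3% above. This split depends on how the libraries are scaled: 44 of the 47 were below 0 with TPM scaling, in which every library has the same sum, 30 with median-of-ratios scaling, 29 with quantile normalization, 32 with scaling without the genes of the mitochondrial genome and 27 when their copies on chromosome 1 were left out too. The share of all genes below 0 is not given for these scalings, here or for the lists below. Under them the median of the 47 minus that of all genes lay between -0.0734 (TPM) and -0.023 (quantile normalization).

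At an adjusted p under 0.05 (limma, Benjamini-Hochberg over all 14087 genes) 0 of the 47 were higher and 0 were lower, the same as for all genes, of which 0.0% were called in either direction. The smallest adjusted p among the 47 was 0.386. At an unadjusted p under 0.05, 3 of the 47 were lower (6.38%), namely Psmc2, Psmb6 and Psmb4, and 0 were higher, whereas 8.58% of all tested genes were lower and 1.6% higher. The groups overlapped for each of the 47, while 0.724% of all genes were lower and 0.0355% higher without overlap. The 6 CCl4 hearts all lay below the Control median for 15 of the 47 (31.9%), against 11.1% of all genes, and all above it for 0 of the 47, against 1.39%. The counts against the Control median, here and below, use RPKM as deposited and were not made under the other scalings. With limma's array weights, which give less weight to libraries that deviate, 8 of the 47 (17.0%) were lower at an adjusted p under 0.05, beside 10.5% of all genes. These were Psmc2, Psmb6, Psma2, Psmb4, Psmc5, Psma7, Psma4 and Psmd10, with adjusted p from 0.0152 to 0.0448. The number lower at an unadjusted p was 8 without Control replicate 1, beside 10.7% of all genes then tested. It was 1 without CCl4 replicate 5 (6.94% of all genes), Control replicate 2 (6.47%) or Control replicate 3 (7.24%), and 0 without Control replicate 4 (5.84%). The 47 genes were even between hearts of a group, with a median SD of 0.15 on the log2 scale (from 0.08 for Psmb1 to 0.26 for Psmb8), against 0.19 for all tested genes.

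**Figure D1:**
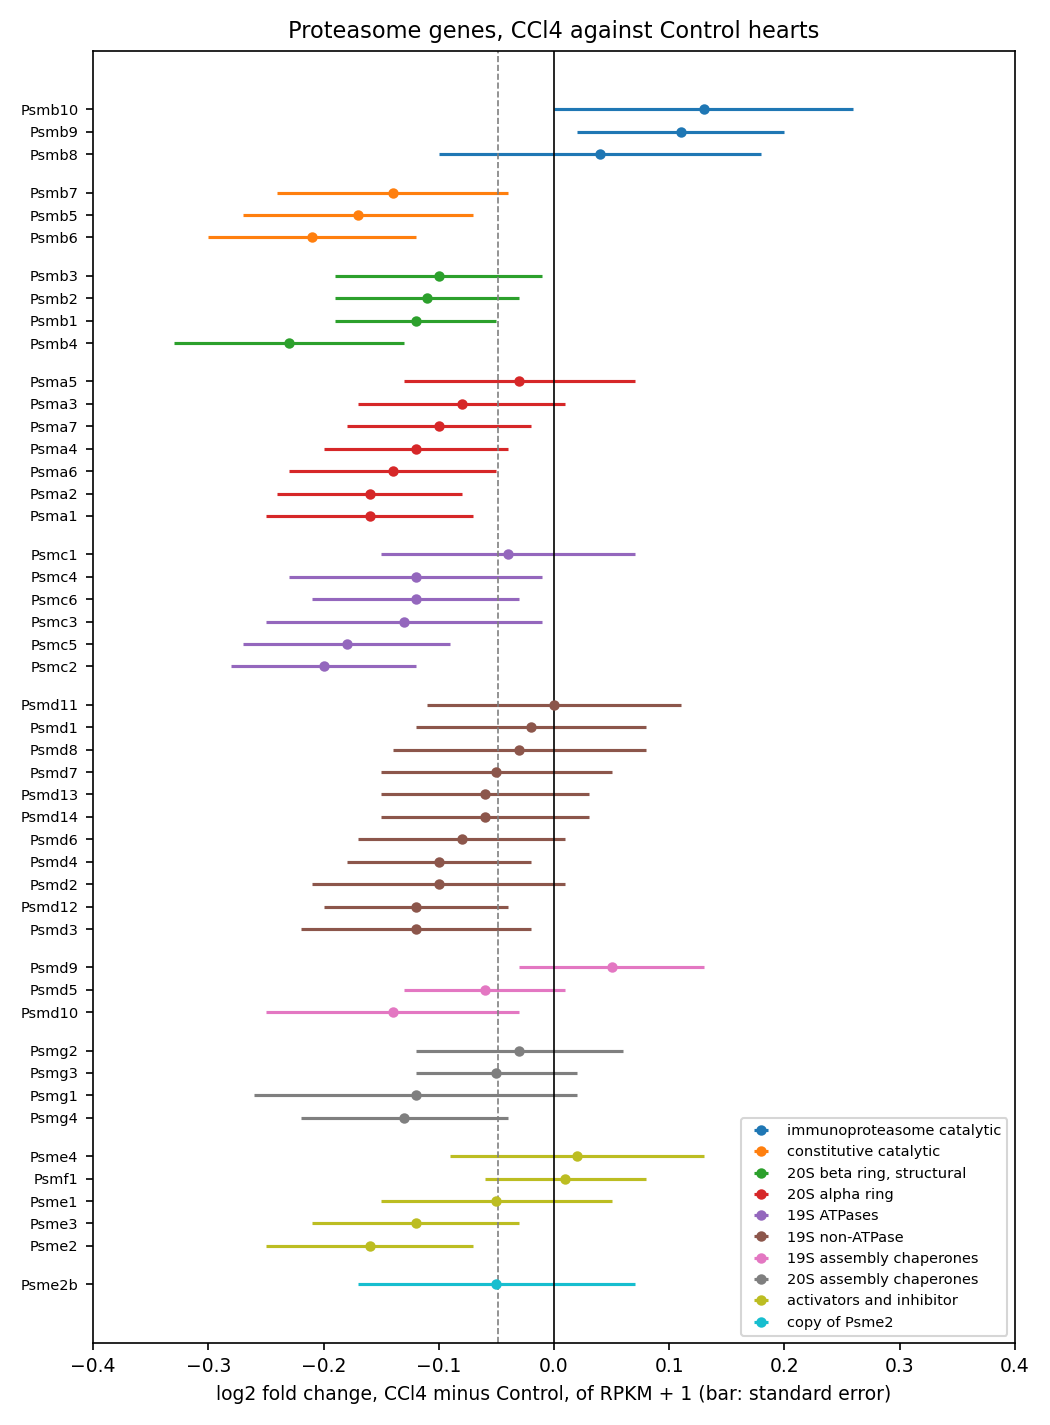
Log2 fold change (CCl4 minus Control, x axis, log2(RPKM + 1) scale) of each proteasome gene with its standard error, grouped by role; the dashed line is the median of all genes tested (-0.05). The 3 immunoproteasome subunits lie above 0, although Psmb8 was below 0 with TPM scaling, and the 3 constitutive catalytic subunits below 0 under each scaling; most of the other genes lie below 0 too.

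The 6 catalytic genes are given first. Psmb5, Psmb6 and Psmb7 encode the constitutive cutting subunits, with chymotrypsin-like, caspase-like and trypsin-like activity. Psmb8, Psmb9 and Psmb10 encode their immunoproteasome replacements, Psmb8 for Psmb5, Psmb9 for Psmb6 and Psmb10 for Psmb7. In GRCm38 (GENCODE M21) Psmb8 lies on chr17:34197721-34201454 on the plus strand and Psmb9 beside it on chr17:34181987-34187764 on the minus strand, in the MHC region next to Tap1. Psmb10 lies on chr8:105935735-105938444 (minus), Psmb5 on chr14:54614119-54618022 (minus), Psmb6 on chr11:70525367-70527858 (plus) and Psmb7 on chr2:38588036-38644087 (minus).

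The promoter windows of 4 of these genes are printed because they hold letters of factors known to act on proteasome genes. Each runs from 250 bases before the start that RefSeq gives (GRCm38.p6) to 50 after it, 5′ to 3′ on the gene's strand, with the motifs found in capitals. The RefSeq start is not the GENCODE start above: it lies 474 bases inside the GENCODE gene for Psmb8, 434 for Psmb9 and 27 for Psmb5, and before the GENCODE start for Psmb6, so the Psmb8 and Psmb9 windows lie within the GENCODE gene. The windows are chr14:54617946-54618245 (Psmb5, minus), chr11:70525107-70525406 (Psmb6, plus), chr17:34197945-34198244 (Psmb8, plus) and chr17:34187281-34187580 (Psmb9, minus).

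Psmb5: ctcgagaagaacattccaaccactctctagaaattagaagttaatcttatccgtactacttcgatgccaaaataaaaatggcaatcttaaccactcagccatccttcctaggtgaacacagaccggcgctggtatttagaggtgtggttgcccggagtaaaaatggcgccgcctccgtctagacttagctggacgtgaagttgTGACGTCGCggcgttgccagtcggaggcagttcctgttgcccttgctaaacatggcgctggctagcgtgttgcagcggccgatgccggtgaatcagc
Psmb6: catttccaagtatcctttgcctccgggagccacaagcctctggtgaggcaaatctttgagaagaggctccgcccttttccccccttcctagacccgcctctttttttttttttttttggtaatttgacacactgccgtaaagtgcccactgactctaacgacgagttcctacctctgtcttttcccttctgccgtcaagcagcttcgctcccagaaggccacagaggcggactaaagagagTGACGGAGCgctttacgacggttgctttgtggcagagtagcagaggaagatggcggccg
Psmb8: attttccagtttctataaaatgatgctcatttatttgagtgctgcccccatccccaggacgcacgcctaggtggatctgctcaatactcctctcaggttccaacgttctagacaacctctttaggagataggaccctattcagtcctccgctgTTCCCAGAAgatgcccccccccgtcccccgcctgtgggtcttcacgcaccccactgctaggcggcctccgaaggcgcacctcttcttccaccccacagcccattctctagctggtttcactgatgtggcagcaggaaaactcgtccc
Psmb9: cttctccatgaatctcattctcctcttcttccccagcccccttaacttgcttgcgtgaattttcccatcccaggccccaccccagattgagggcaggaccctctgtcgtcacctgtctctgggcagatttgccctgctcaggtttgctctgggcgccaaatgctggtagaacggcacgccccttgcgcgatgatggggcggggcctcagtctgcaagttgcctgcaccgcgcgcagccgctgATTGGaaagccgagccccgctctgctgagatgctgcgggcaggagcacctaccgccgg

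The Psmb5 window holds the antioxidant response letters TGACGTCGC at position -47 from the RefSeq start and the Psmb6 window holds TGACGGAGC at -9. The Psmb8 window holds the GAS letters TTCCCAGAA at -97, and the Psmb9 window holds a CCAAT box on the other strand at -8. The searches were for TGACNNNGC (antioxidant response element), GAAA, any 2 bases and GAAA (interferon-stimulated response element), TTCNNNGAA (GAS) and CCAAT, on both strands, and no 2 of the matches in these 4 windows overlap. RefSeq windows were found for 40 of the 47 genes. TGACNNNGC was in 6 of them (15%), among them both Psmb5 and Psmb6, against 14.0% of 27025 genes. The interferon-stimulated element was in 5 (12.5%), namely Psmb3, Psmg4, Psme1, Psmd4 and Psmd9, against 3.99%. TTCNNNGAA was in 3 (7.5%), against 9.55%, and CCAAT in 13 (32.5%), against 41.1%. Over all 32851 windows of this length the shares were 12.4%, 3.44%, 8.3% and 37.4% in that order. A match is a description of letters and not a site of binding.

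For all 3 constitutive catalytic subunits the median of CCl4 hearts was below that of Control hearts. Psmb5 had 18.8, 21.5 and 22.7 RPKM (lowest, median and highest) in CCl4 hearts, against 19.1, 24.3 and 27.6 RPKM in Control hearts. Psmb6 had 18.8, 20.5 and 22.2 RPKM in CCl4 hearts, against 20.1, 24.4 and 26.6 RPKM in Control hearts. Psmb7 had 17.5, 19.3 and 20.1 RPKM in CCl4 hearts, against 16.0, 22 and 24.0 RPKM in Control hearts. In each of the 3 genes the 6 CCl4 hearts all lay below the Control median, but the ranges overlap. The log2 fold changes were -0.17 ± 0.1 (SE) for Psmb5, with an adjusted p of 0.602 (limma, Benjamini-Hochberg), -0.21 ± 0.09 for Psmb6, with an adjusted p of 0.432, and -0.14 ± 0.1 for Psmb7, with an adjusted p of 0.665. They were negative in each of the 26 alternatives that gave a fold change. Reads of Psmb7 share 405 bases of exon with Nek6 on the other strand, those of Psmb5 share 109 bases with Mir686 and have 1 near-identical copy (Gm3375), and no source used here gives the strand setting of the counting.

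The 3 immunoproteasome subunits had fold changes of the opposite sign, except Psmb8 with TPM scaling, and their groups overlapped. Psmb8 had 6.84, 9.57 and 13.8 RPKM in CCl4 hearts, against 8.42, 9.49 and 9.98 RPKM in Control hearts. Psmb9 had 1.43, 1.71 and 2.36 RPKM in CCl4 hearts, against 1.26, 1.61 and 1.89 RPKM in Control hearts. Psmb10 had 12.3, 12.9 and 16.5 RPKM in CCl4 hearts, against 9.55, 12.4 and 16.4 RPKM in Control hearts. Psmb8 was spread widely among CCl4 hearts and narrowly among Control hearts, and the number of CCl4 hearts above the Control median was 3 of 6 for Psmb8 and for Psmb9 and 5 of 6 for Psmb10. The log2 fold changes were 0.04 ± 0.14 (SE) for Psmb8, with an adjusted p of 0.945 (limma, Benjamini-Hochberg), 0.11 ± 0.09 for Psmb9, with an adjusted p of 0.741, and 0.13 ± 0.13 for Psmb10, with an adjusted p of 0.756. The sign of Psmb8 turned to -0.02 without CCl4 replicate 1 and to -0.05 without CCl4 replicate 3. It was also below 0 with TPM scaling (-0.03) and without both libraries numbered 1 (-0.01). Psmb9 and Psmb10 stayed above 0 in each alternative that gave them a fold change. Psmb9 shares 212 bases of exon with Tap1 on the other strand and Psmb8 shares 498 with Gm20496, so their reads cannot be told apart without the strand setting.

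**Figure D2:**
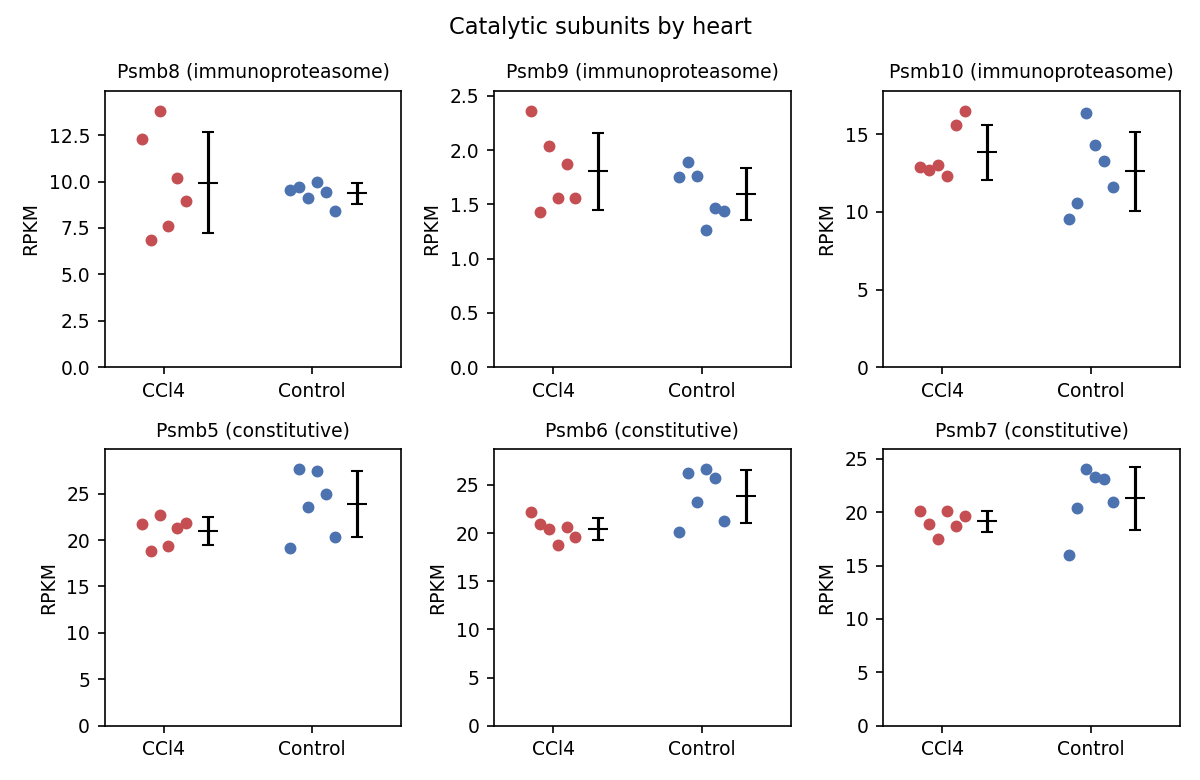
RPKM of the 6 catalytic subunits in each heart (points, CCl4 left and Control right in each pair) with the mean and SD of 6 hearts. The CCl4 points of Psmb5, Psmb6 and Psmb7 all sit below the Control median, while Psmb8 of CCl4 hearts spreads from 6.84 to 13.8 RPKM against 8.42 to 9.98 RPKM in Control hearts.

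In level over all 12 hearts, per gene length, the order was Psmb5 (22.4 ± 3.02 RPKM, SD), Psmb6 (22.1 ± 2.69), Psmb7 (20.2 ± 2.36), Psmb10 (13.2 ± 2.18), Psmb8 (9.65 ± 1.87) and Psmb9 (1.7 ± 0.309). Within a heart Psmb5 was above Psmb6 in 7 of 12 hearts and Psmb6 above Psmb7 in 9 of 12, so the order of these neighbours was not steady. Psmb7 was above Psmb10 in 12 of 12, Psmb10 above Psmb8 in 10 of 12 and Psmb8 above Psmb9 in 12 of 12.

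To set the classes against each other, the mean log2(RPKM + 1) of the 3 immunoproteasome genes minus that of the 3 constitutive genes was computed in each heart. It was -1.69, -1.43 and -1.3 (lowest, median and highest) in CCl4 hearts, against -1.88, -1.78 and -1.52 in Control hearts. Each of the 6 CCl4 hearts was above the median of Control hearts, and the groups overlapped through CCl4 replicates 2 and 4 and Control replicates 1 and 3. The means were -1.48 ± 0.15 in CCl4 hearts and -1.74 ± 0.14 in Control hearts (SD, n = 6 each), a difference of 0.265 on the log2 scale. The difference lay between 0.23 and 0.34 under the alternatives that gave it. In CCl4 hearts the immunoproteasome mean was 2.93 ± 0.18, against 2.83 ± 0.09 in Control hearts, and the constitutive mean was 4.4 ± 0.05, against 4.57 ± 0.18. Taken as a ratio of RPKM within a heart, Psmb10 over Psmb7 was 0.724 ± 0.098 in CCl4 hearts and 0.591 ± 0.057 in Control hearts, with 6 of 6 CCl4 hearts above the median of Control hearts. Psmb8 over Psmb5 was 0.469 ± 0.0983 in CCl4 hearts and 0.399 ± 0.0544 in Control hearts, and Psmb9 over Psmb6 was 0.0879 ± 0.0139 in CCl4 hearts and 0.068 ± 0.014 in Control hearts, each with 5 of 6 CCl4 hearts above it. No p is given for these scores, since the genes were chosen with results known. The p-values given for single genes and for correlations are of genes chosen in the same way, which limits them too.

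Over all 47 genes, the mean deviation from each gene's average was -0.22, -0.02 and 0.04 (lowest, median and highest, log2 scale) in CCl4 hearts, against -0.09, 0.05 and 0.16 in Control hearts. The 6 CCl4 hearts were all below the Control median, and the groups overlapped. Beside it stands the share of signal from mitochondrial genes and their chromosome 1 copies. This mitochondrial share was 33.4%, 37.1% and 45.7% in CCl4 hearts, against 31.1%, 33.7% and 39.8% in Control hearts. The heart with the lowest mean of the 47 genes, CCl4 replicate 2, had the highest mitochondrial share, and Control replicate 6, with the highest share of the Control hearts, had the next to lowest mean of its group. The median log2 fold change of the 47 genes was -0.04 when the mitochondrial genes were left out of the scaling, beside -0.01 for all genes, and -0.01, beside 0.02, when their copies on chromosome 1 were left out too; the part of the mitochondrial share in the values of the 47 genes was otherwise not tested.

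**Figure D3:**
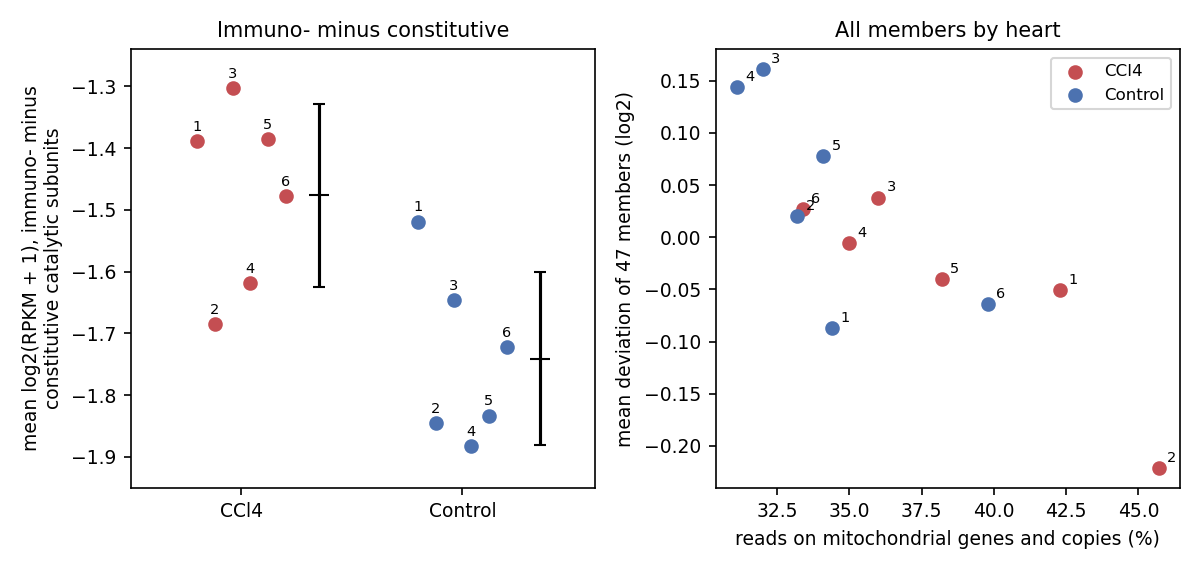
Left, the immunoproteasome minus constitutive score (log2 scale) of each heart, CCl4 before Control. Right, the mean deviation of the 47 genes from their mean over all hearts (log2) against the share of signal from mitochondrial genes and their chromosome 1 copies (percent). The 6 CCl4 hearts lie between -0.22 and 0.04 and the 6 Control hearts between -0.09 and 0.16.

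Leukocytes express immunoproteasome genes strongly, and their markers were measured beside these genes. All 8 of the tested leukocyte markers (of 16 listed) were above 0 in the fold change, 0 at an unadjusted p under 0.05. Their summed level, over the 16 listed, was 9.08 to 47.4 RPKM in CCl4 hearts and 11.4 to 14.3 RPKM in Control hearts; no marker of the list was at 0 throughout. Ptprc, the common leukocyte antigen CD45, had 1.19 RPKM in CCl4 replicate 1, 0.706 in replicate 2, 3.63 in replicate 3, 1.21 in replicate 4, 1.53 in replicate 5 and 2.0 in replicate 6, against 0.914 to 1.37 in Control hearts. Psmb8 was highest in CCl4 replicate 3, at 13.8 RPKM, and replicate 1, at 12.3 RPKM, and of these replicate 3 had the highest leukocyte sum, 47.4 RPKM, while replicate 1 had 13.2 RPKM, within the Control range. Of these markers only Ptprc was set against the 3 immunoproteasome genes in the correlations given below. None of its relations with them had an adjusted p under 0.05 (permutation test). The part of the markers in the immunoproteasome values was otherwise not tested. Of the cardiomyocyte markers 7 of 8 were below 0 (6 to 8 under the other scalings), 2 at an unadjusted p under 0.05, with a summed level of 18649 to 28842 RPKM in CCl4 hearts and 26968 to 33896 RPKM in Control hearts. The lowest of these sums was that of CCl4 replicate 3, and the next CCl4 heart had 26428 RPKM. All 7 endothelial markers were lower at an unadjusted p under 0.05, with a sum of 228 to 290 RPKM in CCl4 hearts and 301 to 385 RPKM in Control hearts; the part of both lists in the values of the proteasome genes was not tested.

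Psmb8 was high in the same hearts as Tap1, which carries peptides into the endoplasmic reticulum, and B2m, the shared light chain of MHC class I. Of 30 relations computed across the 12 hearts on the log2 scale, 15 between catalytic subunits and 15 with other genes, 4 had an adjusted p under 0.05 for Pearson's r (permutation test, two-sided). The correlations use RPKM as deposited and were not repeated under the other scalings. A scale shared by all genes of a library can raise r, and its part in these relations was not tested. Psmb8 and Tap1 gave an r of 0.909 (adjusted p 0.0021), a rho of 0.783 (permutation p 0.00358, adjusted 0.107), and an r of 0.759 without the 2 hearts farthest from the median. Within the groups it was 0.988 in CCl4 hearts (exact permutation p 0.00278) and 0.714 in Control hearts (exact permutation p 0.158). Psmb8 and B2m gave an r of 0.912 (adjusted p 0.0021, permutation test) and a rho of 0.622 (adjusted p 0.153), and 0.739 without the 2 farthest hearts; the relation was 0.945 within CCl4 hearts (exact permutation p 0.00417) and 0.183 within Control hearts (exact permutation p 0.776). Psmb9 and Tap1, which share bases, gave an r of 0.769 (adjusted p 0.0244, permutation test) and a rho of 0.671 (adjusted p 0.14), which dropped to 0.458 without the 2 farthest hearts and so rests on them. It was 0.92 within CCl4 hearts (exact permutation p 0.00972) and 0.253 within Control hearts (exact permutation p 0.717). The fourth was Psmb5 with Psmb6, with an r of 0.876 (adjusted p 0.003, permutation test), a rho of 0.699 (adjusted p 0.14), 0.726 without the 2 farthest hearts, 0.984 within Control hearts (exact permutation p 0.00278) and 0.256 within CCl4 hearts (exact permutation p 0.628). No rho passed the adjustment. Psmb10 gave an r of 0.04 with Psmb8 and -0.1 with Psmb9. Psmb8 with Ptprc gave an r of 0.686 (permutation p 0.0173, adjusted 0.0864), which did not pass. Ptprc gave an r of 0.38 with Psmb9 (adjusted p 0.441, permutation test) and 0.292 with Psmb10 (adjusted p 0.566, permutation test).

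**Figure D4:**
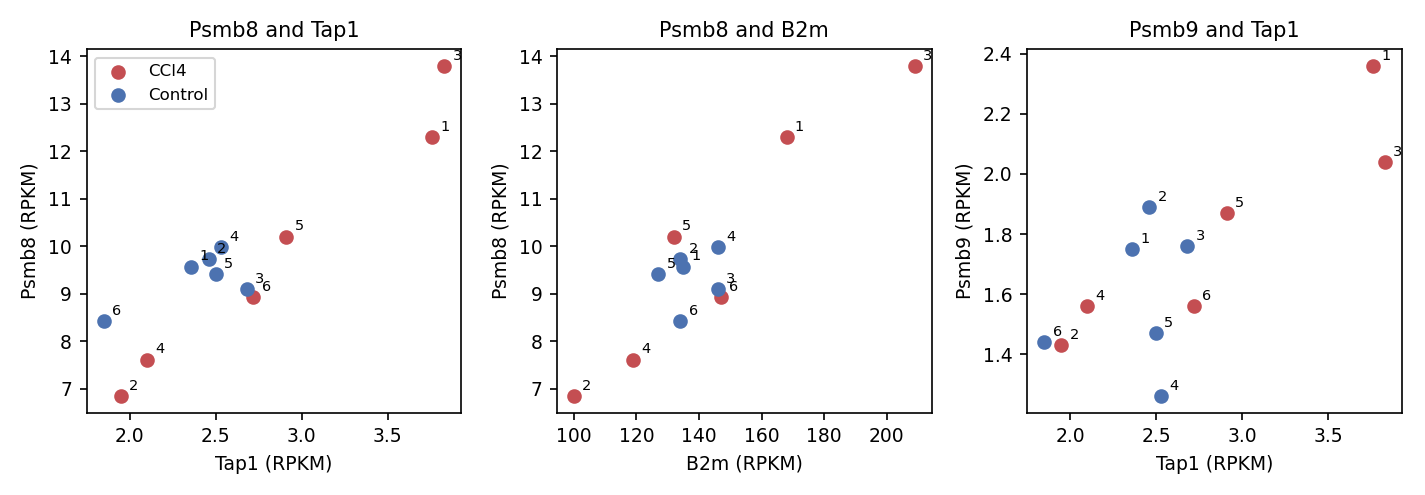
Psmb8 against Tap1, Psmb8 against B2m and Psmb9 against Tap1 (RPKM, each point a heart, coloured by group). CCl4 replicates 1 and 3 hold the highest Psmb8, at 12.3 and 13.8 RPKM, and lie at the top right of the Psmb8 panels.

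The alpha ring, which forms the gate of the barrel, had 7 of 7 genes below 0, or 5 to 7 under the other scalings, with a median log2 fold change of -0.12 and a range of -0.16 to -0.03. Psma2 had 37.0, 41.7 and 46.3 RPKM in CCl4 hearts, against 43.0, 47.1 and 49.9 RPKM in Control hearts (-0.16 ± 0.08, SE; adjusted p 0.513, limma). Psma1 had 9.07, 11.1 and 12.1 RPKM in CCl4 hearts, against 10.8, 12.2 and 14.2 RPKM in Control hearts (-0.16 ± 0.09; adjusted p 0.541, limma). For both genes the 6 CCl4 hearts were below the Control median but overlapped the Control range. The ring ran from Psma1 (11.7 RPKM on average over 12 hearts) to Psma4 (73.7 RPKM), which had 66.9, 68.8 and 81.9 RPKM in CCl4 hearts and 71.6, 76.5 and 83.3 RPKM in Control hearts.

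The 4 structural beta subunits had 4 of 4 genes below 0 under each scaling, with a median of -0.11. Psmb4 showed the most negative fold change of the 47 genes, -0.23 ± 0.1 (SE; unadjusted p 0.0392, adjusted p 0.445, limma). It had 15.6, 17.4 and 18.7 RPKM in CCl4 hearts, against 16.2, 20.5 and 23.8 RPKM in Control hearts, with all 6 CCl4 hearts below the Control median. Psmb1 had 27.0, 30.4 and 31.9 RPKM in CCl4 hearts, against 30.7, 32.9 and 35.6 RPKM in Control hearts, and Psmb3, which has 3 near-identical copies, had 5.44, 6.19 and 6.69 RPKM in CCl4 hearts, against 5.15, 7.05 and 7.5 RPKM in Control hearts.

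The 6 ATPases of the cap, which unfold the substrate, were all below 0, or 5 of 6 under 4 of the other scalings, with a median of -0.13. Psmc2 had 8.02, 8.67 and 9.67 RPKM in CCl4 hearts, against 9.13, 10.2 and 11.1 RPKM in Control hearts. Its 6 CCl4 hearts were all below the Control median and the ranges overlapped; it had the smallest p of the 47 genes (log2 fold change -0.2 ± 0.08, SE; unadjusted p 0.0208, adjusted p 0.386, limma). Psmc5 had 43.6, 52.9 and 56.6 RPKM in CCl4 hearts, against 49.4, 60.3 and 64.9 RPKM in Control hearts (-0.18 ± 0.09, SE; adjusted p 0.52, limma). Psmc3, the highest of the core and cap subunits in RPKM, had 80.8, 95 and 118 RPKM in CCl4 hearts, against 90.8, 103 and 139 RPKM in Control hearts.

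The other 11 subunits of the cap, which include the ubiquitin receptor Psmd4 and the deubiquitinase Psmd14, had 10 genes below 0 and 1 above, with a median of -0.06, but 3 to 11 below 0 under the other scalings. Psmd7 had 58.2, 71.6 and 80.3 RPKM in CCl4 hearts, against 64.4, 71.2 and 77.1 RPKM in Control hearts, so its medians were close, and its sign depends on the scaling. Psmd11, the one above 0, had 1.67, 2.65 and 2.93 RPKM in CCl4 hearts, against 1.88, 2.46 and 2.8 RPKM in Control hearts, with a log2 fold change of 0.0 that was of either sign under the alternatives. Psmd11 also has 2 near-identical copies, so its low level is uncertain. The assembly chaperones of the cap were at low levels: Psmd10 had 3.65, 5.58 and 6.04 RPKM in CCl4 hearts, against 5.22, 5.72 and 6.16 RPKM in Control hearts. Psmd5 had 0.767, 1.05 and 1.33 RPKM in CCl4 hearts, against 0.976, 1.13 and 1.26 RPKM in Control hearts, and Psmd9 had 0.821, 1.19 and 1.39 RPKM in CCl4 hearts, against 0.89, 0.992 and 1.35 RPKM in Control hearts.

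The activators open the barrel in place of the cap. Psme1 and Psme2 encode the 2 chains of the interferon-inducible PA28 ring, and both had a fold change below 0, although that of Psme1 was above 0 under 4 of the other scalings. Psme1 had 106, 119 and 128 RPKM in CCl4 hearts, against 102, 119 and 147 RPKM in Control hearts (-0.05 ± 0.1, SE; adjusted p 0.902, limma). Psme2 had 22.7, 25.5 and 28.7 RPKM in CCl4 hearts, against 25.3, 29.2 and 33.0 RPKM in Control hearts (-0.16 ± 0.09; adjusted p 0.576, limma). The medians of Psme1 were equal, while the 6 CCl4 hearts of Psme2 were below the Control median. Psme2 and Psme2b share near-identical sequence, so their reads may be split. Psme2b had 2.26, 3.73 and 4.42 RPKM in CCl4 hearts, against 3.26, 3.52 and 4.24 RPKM in Control hearts. Psme3, the nuclear PA28 form, had 4.18, 5.13 and 5.97 RPKM in CCl4 hearts, against 4.91, 5.48 and 6.16 RPKM in Control hearts. Psme4, the PA200 activator, had 4.74, 6.18 and 7.12 RPKM in CCl4 hearts, against 5.06, 5.65 and 7.18 RPKM in Control hearts. Psmf1, an inhibitor of the 20S core, was at 0.669, 0.885 and 0.975 RPKM in CCl4 hearts, against 0.607, 0.82 and 1.03 RPKM in Control hearts, and the groups of both genes overlapped over most of their range.

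The 4 chaperones that build the barrel were all below 0, or 3 of 4 under 4 of the other scalings, with a median of -0.08. Psmg1, which with Psmg2 starts the alpha ring, had 6.17, 7.36 and 9.12 RPKM in CCl4 hearts, against 5.31, 8.92 and 9.94 RPKM in Control hearts. Psmg2 had 5.69, 6.04 and 7.39 RPKM in CCl4 hearts, against 5.15, 6.59 and 7.82 RPKM in Control hearts. Psmg4 had 14.9, 17.6 and 18.7 RPKM in CCl4 hearts, against 15.8, 19.2 and 20.9 RPKM in Control hearts, with all 6 CCl4 hearts below the Control median. Psmg3 had 0.512, 0.744 and 0.993 RPKM in CCl4 hearts, against 0.761, 0.805 and 0.965 RPKM in Control hearts, and rests on 58 to 134 steps per library. Psmc3ip, which the name rule took in but is no proteasome gene, had 3.63, 4.55 and 5.84 RPKM in CCl4 hearts, against 4.93, 5.51 and 6.39 RPKM in Control hearts (log2 fold change -0.25 ± 0.1, SE; adjusted p 0.416, limma).

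**Figure D5:**
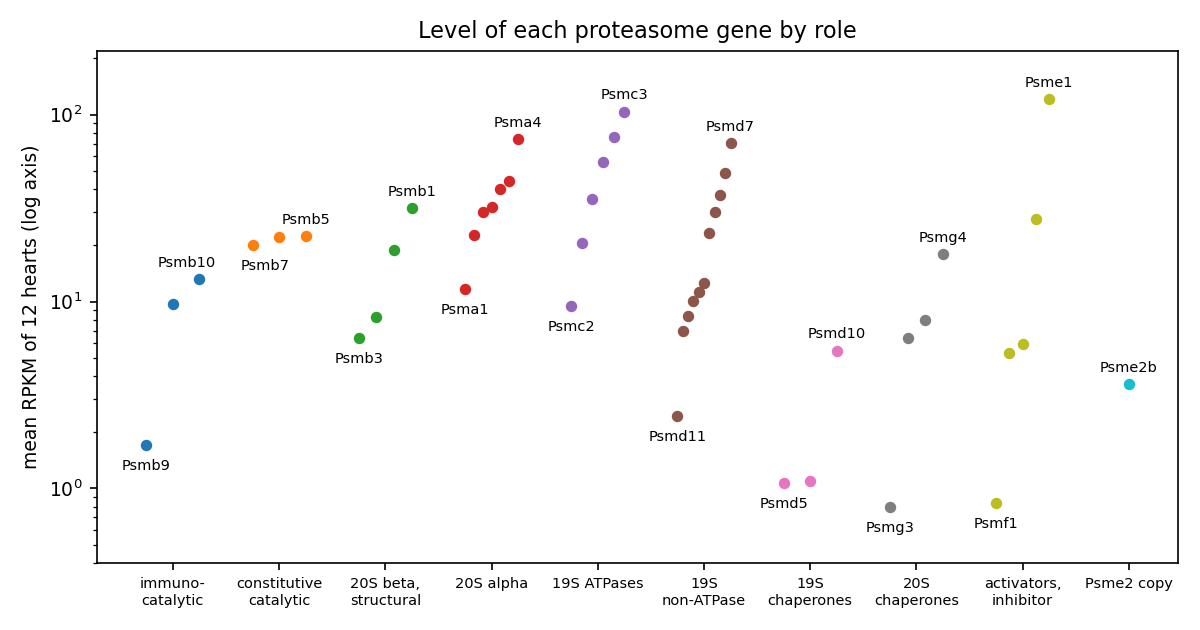
Mean RPKM over the 12 hearts of each of the 47 genes by role, on a log axis. Levels run from 0.797 (Psmg3) to 121 (Psme1), with the immunoproteasome subunits at 1.7 to 13.2 RPKM and the constitutive catalytic subunits at 20.2 to 22.4 RPKM.

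Subunits that sit in one particle differed widely in their level per gene length. The 31 structural and constitutive subunits of the barrel and the cap ran from 2.45 RPKM (Psmd11) to 104 RPKM (Psmc3), a 42.4-fold range with a median of 22.8. RPKM was taken here as scaled by the merged exons of a gene in GENCODE M21, since the annotation release used is not given. These exons are 1.0 to 3.36 times the length of the gene's coding transcript. If so, the range scaled by the coding transcript was 5.49 (Psmd11) to 150 (Psma4), or 27.3-fold. Near-identical copies were found for 10 of the 47 genes and exon overlaps for 14, so the levels of these are uncertain.

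Of 15 partners of the proteasome outside the name rule, such as the ubiquitin shuttles and assembly factors, 14 were below 0 and 1 above (median -0.08; 8 to 14 below 0 under the other scalings), with 0 called at an adjusted p under 0.05 and 2 lower at an unadjusted p. Ubqln4, a ubiquitin shuttle, had 4.03, 4.18 and 4.45 RPKM in CCl4 hearts, against 4.31, 5.08 and 5.73 RPKM in Control hearts (-0.21 ± 0.07, SE; adjusted p 0.363, limma). AI314180, the mouse symbol of the proteasome adaptor Ecpas, had 6.61, 6.9 and 7.29 RPKM in CCl4 hearts, against 7.25, 7.83 and 8.2 RPKM in Control hearts (-0.14 ± 0.06; adjusted p 0.469, limma). For both genes the 6 CCl4 hearts were below the Control median. Ubiquitin and its activating enzymes had 4 of 5 tested genes below 0 (3 to 5 below 0 under the other scalings), with Rps27a at -0.15. The Nrf1 axis, which drives proteasome genes when the proteasome is inhibited, had 7 of 9 below 0 and 2 above (median -0.04; 3 to 9 below 0 under the other scalings), among them Syvn1 at -0.08 and Vcp at -0.11. MHC class I processing had 6 of 10 above 0 and 4 below (median 0.04; 2 to 9 above 0 under the other scalings), with Tap1 at 0.17 ± 0.13 (SE; adjusted p 0.681, limma) and Calr at -0.27. Interferon signalling had 8 of 12 above 0 and 4 below (median 0.05; 5 to 11 above 0 under the other scalings), with Irf8 at 0.16 and Jak1 at 0.12. In these last 4 lists 0 genes passed an adjusted or an unadjusted p under 0.05.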

How the data were processed

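Messenger RNA of 6 CCl4 and 6 Control mouse hearts was sequenced from TRIzol-extracted RNA with a stranded kit, per the labels' protocols. The submitters' processing notes, per the labels, name Trimmomatic 0.36, featureCounts, Subread 1.5.1 and GRCm38. Which aligner, annotation release and strand setting were used is not given in the sources used here. RPKM were deposited by the authors, per the file headers, for 31722 symbols in 12 columns, 1 per heart, and columns were joined to hearts by name. Depth is given as relative steps, found from exon lengths of GENCODE M21 (30196 symbols, 95.2%, matched); 92.7% to 93.9% of low values lay within 0.05 of a whole step. Because most of these values were even, 1 step need not equal 1 fragment; totals are relative and no count test was run.

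The 14087 genes with 0.5 RPKM or more in 6 or more libraries were fitted with limma 3.58.1 in R 4.3.3 (trend, no covariate) on log2(RPKM + 1), which understates the change of low genes; p was adjusted by Benjamini-Hochberg over all of them, with a threshold of 0.05. Correlations used permutation tests with 100000 resamples over 12 hearts, exact within groups. Near-identical copies (at least 95% identity over 200 bases) came from BLAST+ 2.17.0. Promoter motifs were searched in RefSeq windows. Named genes were the 6 catalytic ones, the activators and assembly chaperones, the 5 of smallest p in each direction, the highest and lowest of each role and 2 of each outside list, of which 1 gene is not reported here. The members, lists and rules were chosen with earlier results of these data known. P-values measure the spread between these 12 mice. Alternatives were other pseudocounts, filters, scalings, array weights, the replicate block, a rank-sum test, each library left out, and 4 added after seeing the data: both libraries numbered 1 left out, the atrium-rich libraries left out, the mitochondrial copies left out, and Xist level as a covariate.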

Additional observations from a re-analysis of the deposited data

Results flagged for a closer look

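In 118 groups of 6 hearts, made of the genes and of the per-heart means of the genes, 5 had one heart far from the others; chance flags about 1 in 20. CCl4 replicate 2 was far below the others for Psmc5, an ATPase of the cap, at 43.6 RPKM, with the next CCl4 heart at 51.7 RPKM. It was also far below the others in the mean deviation of the 47 genes, at -0.221 on the log2 scale, with the next CCl4 heart at -0.051. This heart had the highest share of signal from mitochondrial genes and their chromosome 1 copies, 45.67%, against 33.36% to 42.31% in the other CCl4 hearts. CCl4 replicate 3 was far above the others for Psma3, an alpha subunit with 4 near-identical copies, at 36.4 RPKM (next 29.2 RPKM), for Psmd14, the deubiquitinase of the cap, at 12.3 RPKM (next 9.75 RPKM), and for Psma4, an alpha subunit, at 81.9 RPKM (next 70.1 RPKM). Its marker sums also stood apart from those of the other CCl4 hearts. The cardiomyocyte sum was the lowest, at 18649 RPKM (next 26428 RPKM). Its leukocyte sum, 47.4 RPKM (next 22.8 RPKM), and fibroblast sum, 584 RPKM (next 344 RPKM), were the highest. The cause was not tested.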

How the results depend on the processing

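Of 749 values of 29 named genes under the alternatives, 701 kept their sign and side of the adjusted threshold, 7 passed it only with array weights, and 41 changed sign, in 7 genes. Leaving out each heart in turn gave -0.0512 to 0.132 for Psmb8, -0.103 to 0.000185 for Psme1, -0.0279 to 0.0722 for Psme4, -0.0221 to 0.0452 for Psmf1, -0.0886 to 0.0157 for Psmg2, -0.0899 to 0.00141 for Psmd7 and -0.05 to 0.0723 for Psmd11. Psmd11 was -0.00274 and -0.000934 with pseudocounts of 0.1 and 0.5, and -0.0568 with TPM scaling, as were Psmb8 at -0.0279, Psme4 at -0.0491 and Psmf1 at -0.0225. Without the atrium-rich hearts Psmd11 was -0.0501 and Psme4 -0.0457, and without both libraries numbered 1 Psmb8 was -0.0146. Median-of-ratios, quantile, mitochondria-free and copy-free scaling gave Psme1 0.0232, 0.0369, 0.0111 and 0.0492, Psmg2 0.0332, 0.0263, 0.021 and 0.0546, and Psmd7 0.0273, 0.0501, 0.0154 and 0.0533. The cause was not tested. Genes higher at an adjusted p numbered 0 as reported, 770 with array weights, 96 without both libraries numbered 1, 1 without the atrium-rich hearts and 0 to 7 with each heart left out; genes lower numbered 0, 1479, 211, 0 and 0 to 39. Of the 47 genes 8 were lower at an adjusted p with array weights and 0 otherwise. At an unadjusted p the 3 lower genes (8.58% of all genes) became 6 with no filter (5.44% of all genes), 0 with median-of-ratios scaling (5.37%), quantile normalization (5.84%) or copy-free scaling (3.86%), 1 with mitochondria-free scaling (5.55%), 19 with array weights (20.2%), 8 with the rank-sum test (8.38%), 6 without both libraries numbered 1 (10.3%), 7 without the atrium-rich hearts (10.7%) and 0 to 8 with each heart left out (5.84% to 14.3%). A filter of a mean RPKM of 2 drops Psmb9, so it gave no immunoproteasome score. To compare hearts of the same number, the group mean of each gene was first subtracted from its log2 values. On these deviations same-numbered hearts correlated from -0.474 to 0.232 over the tested genes. Of the 6 CCl4 hearts 2 correlated best with the Control heart of their own number. Xist status matched in all 6 same-numbered pairs, but the labels do not say what a number stands for, so the numbers were not taken as pairs. The replicate block gave 0 of the 47 lower at an unadjusted p (6.15% of all genes) where 3 were reported, and Xist status as a covariate gave 3 (8.46%). Low values of Psmg3, Psme2b and Psmf1 rest on 58 to 367 steps, which limits them. Psmb9, which enters the immunoproteasome score, rests on 139 to 444 steps and is limited in the same way.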
